A study of Mus musculus with 77 samples.

Results

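Direct pathway and indirect pathway spiny projection neurons (dSPN and iSPN) of the dopamine-depleted striatum were compared while the mice received a chronic low dose of levodopa. The comparison holds the 20 arrays, of 77 in the series, that the source labels place in lesioned, low-dose mice: 12 of the Drd1 line (dSPN) and 8 of the Drd2 line (iSPN). All 13271 genes above a low-expression filter were tested, and the difference is dSPN minus iSPN throughout.

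Each array profiled messenger RNA from the dorsal striatum of 1 male C57BL/6J mouse, aged 9 to 14 weeks, by translating ribosome affinity purification (TRAP). In TRAP a transgene tags the ribosomal protein L10a with EGFP in a chosen cell class, and tagged ribosomes are pulled down with the RNA they carry. The tag was driven by the Drd1 gene's bacterial artificial chromosome in dSPN (line CP73) and by that of Drd2 in iSPN (line CP101). Each class was therefore read from 1 transgenic line, and any other cell in which the promoter is active carries the tag too. Drd1::EGFP-L10a and Drd2::EGFP-L10a mice of both low-dose groups had been injected with the dopamine neuron toxin 6-OHDA (3.2 µg/µl) in the right medial forebrain bundle. All were hemizygous for the transgene. They then received a levodopa dose of 1 mg/kg for days 1 to 3, raised to 2 mg/kg for days 4 to 9, with benserazide at 12 mg/kg, which blocks the conversion of levodopa outside the brain. The other states, each read in both lines, were a mock lesion (injection of the toxin's vehicle) with saline (10 dSPN and 10 iSPN arrays), the lesion with saline (11 and 7) and the lesion with levodopa at 3 mg/kg and later 6 mg/kg (11 and 8). Lesioned mice had been selected for successful lesions by turning and limb use, and tissue was taken directly after the last behavioural session. The design names the low regimen as one thought able to restore limb use while sparing the mice conspicuous dyskinesia, the involuntary movement awaited under the high regimen.

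Both neuron classes are GABAergic and make up most of the striatum. dSPN project to the substantia nigra and internal pallidum and carry the Gs/Golf-coupled D1 receptor, whereas iSPN project to the external pallidum and carry the Gi-coupled D2 receptor. Dopamine formed from levodopa thus raises cAMP signalling in dSPN and lowers it in iSPN. In the depleted striatum the D1 receptor's response is known to be sensitised, with strong activation of the ERK MAP kinase and of activity-regulated genes.

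Levels are given as the log2 values that were deposited, and each array is a separate mouse. Array medians lay between 4.31 and 4.42 in the whole series, and no pair of arrays correlated above 0.987. No detection calls were used, which leaves precision to the number of arrays, and a low log2 level has no detection limit attached. Numbering in the titles splits the samples into 7 runs, each within 1 line. Of the low-dose dSPN arrays 11 belong to 1 run and replicate 5 to the next, while all 8 iSPN arrays belong to another, which means that line and run cannot be told apart. Run also follows state. No low-dose dSPN array shares a run with a saline-treated lesioned dSPN array. No low-dose iSPN array shares one with a high-dose or mock-lesion iSPN array. State and run cannot be told apart in those comparisons, nor in the interactions that contain them. Among the 12 dSPN arrays the typical (median) gene had an SD of 0.30, against 0.36 among the 8 iSPN arrays, and the SD was higher in iSPN for 64.8% of genes.

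The labels were first checked against the genes that drive the tags. Drd1, the D1 receptor gene, ranged from 11.11 to 11.71 in the dSPN arrays (median 11.58), against 8.79 to 10.23 in the iSPN arrays (median 9.67). Drd2, the D2 receptor gene, ranged from 5.14 to 7.68 in dSPN (median 6.84), against 11.90 to 12.36 in iSPN (median 12.24). Neither gene's groups overlapped, and each receptor was higher in the line named for it. The differences were 1.91 for Drd1 (SE 0.13, adjusted p = 1.22e-19) and -5.58 for Drd2 (SE 0.18, adjusted p = 2.3e-39) in limma's moderated test. Every adjusted p below comes from the same limma fit with Benjamini-Hochberg adjustment over all genes tested, a gene is called at an adjusted p under 0.05, and differences are of log2 means. Because each array is a pool of cells from 1 striatum, more cells of a type and more RNA per cell cannot be told apart in any of these values.

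At the low dose 4868 genes differed between the neuron classes, or 36.7% of those tested, with 2192 higher (16.5%) and 2676 lower (20.2%) in dSPN. Of these, 403 were over 2-fold higher and 629 over 2-fold lower. The median difference over all genes was -0.01, and the median size of a called difference was 0.63 against a median SE of 0.16. The ranges of the groups did not overlap at all for 639 genes (4.82%), 347 of them higher in dSPN (2.61%) and 292 lower (2.20%).

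**Figure D1:**
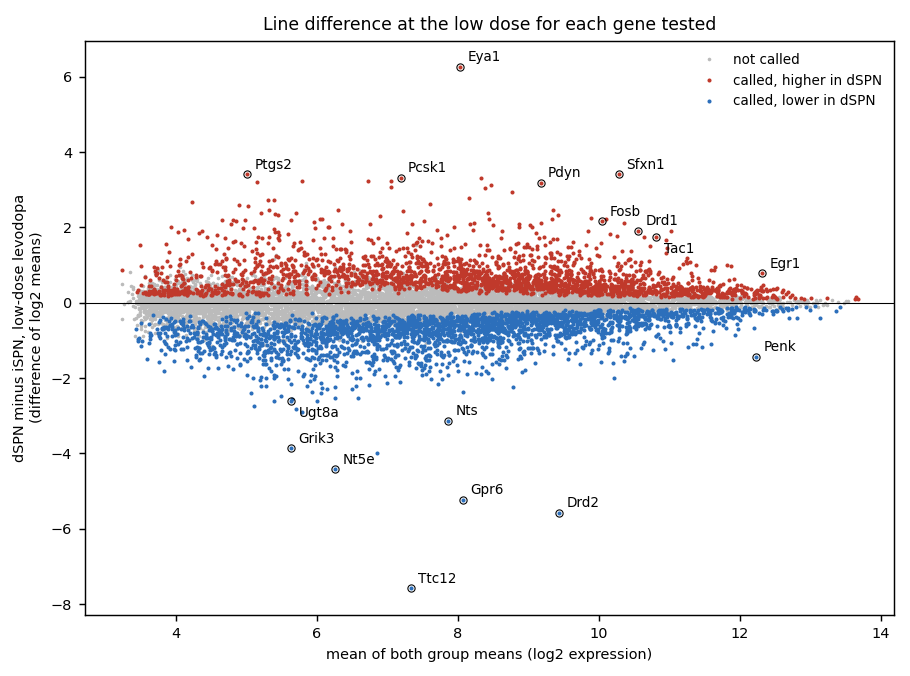
Difference between dSPN and iSPN under low-dose levodopa (y axis, difference of log2 means, dSPN minus iSPN) against the mean of both group means (x axis, log2 expression), 1 point per gene, with called genes coloured by direction. Ttc12 and Drd2 lie at -7.58 and -5.58 and Eya1 at 6.26, while most of the 13271 genes lie near 0.

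The highest and the lowest difference of all belonged to line markers. Eya1, a transcriptional coactivator with phosphatase activity, ranged from 10.07 to 11.70 in dSPN (median 11.25), against 3.88 to 5.63 in iSPN (median 5.25). It was 76.7-fold higher in dSPN (difference 6.26, SE 0.23, adjusted p = 7.3e-36). Ttc12, a tetratricopeptide repeat protein, ranged from 2.92 to 4.72 in dSPN (median 3.5), against 10.76 to 11.53 in iSPN (median 11.10). Its difference of -7.58 (SE 0.17, adjusted p = 2.65e-49) was the lowest of all genes tested. In the order of genes in the mouse assembly GRCm38.p6, Ttc12 lies 2 genes from Drd2 on chromosome 9, and Sfxn1 lies next to Drd1 on chromosome 13. Sfxn1, a mitochondrial serine transporter, differed by 3.41 (SE 0.13, adjusted p = 5.13e-34), and its arrays ranged from 11.63 to 12.31 in dSPN, against 8.29 to 8.92 in iSPN. The other tested genes within 5 places were mixed: Usp28 and Zw10 near Drd2 were lower in dSPN (-1.14 and -0.84), and Nfil3 near Drd1 was higher (1.36). Ncam1, 3 genes from Drd2, was higher in dSPN by 0.79 (adjusted p = 8.48e-08), and Hrh2 and Cplx2, 2 and 3 genes from Drd1, were not called, at 0.15 and 0.04. Both transgenes are bacterial artificial chromosomes built on those receptor genes, and whether they carry the neighbours was not tested. Fig4, a phosphoinositide phosphatase gene next to Gpr6 on chromosome 10, differed by -2.52 (SE 0.21, adjusted p = 1.35e-16). Its arrays ranged from 3.82 to 6.47 in dSPN, against 7.13 to 7.76 in iSPN.

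Of 13 markers of dSPN, 11 were higher in dSPN and 2 were lower (16.5% and 20.2% of all genes), with a median difference of 2.00. Beyond Drd1, Eya1 and Sfxn1 they included Slc35d3 (3.22, SE 0.24), a transporter that acts in D1 receptor trafficking, the transcription factors Ebf1 (3.07, SE 0.33) and Isl1 (3.03, SE 0.23), and Chrm4 (1.73, SE 0.22), the M4 muscarinic receptor. Ebf1 ranged from 7.70 to 9.39 in dSPN (median 8.56), against 3.96 to 6.54 in iSPN (median 5.85). Isl1 ranged from 9.63 to 10.17 in dSPN (median 9.90), against 5.39 to 7.76 in iSPN (median 7.08). For 10 of the 13 markers the groups did not overlap, each time with dSPN higher (2.61% of all genes). The exceptions in direction were Nnat, a small membrane proteolipid (-0.68, SE 0.16, adjusted p = 0.000678), and the orphan receptor Gpr149 (-0.64, SE 0.24, adjusted p = 0.0257), and the arrays of both overlapped between lines.

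All 10 markers of iSPN that were tested were lower in dSPN (20.2% of all genes), with a median difference of -3.93. The groups of 9 of them did not overlap (2.20% of all genes in that direction). Gpr6, a constitutively active Gs-coupled receptor, ranged from 3.71 to 6.58 in dSPN (median 5.73), against 10.16 to 11.13 in iSPN (median 10.67), a difference of -5.22 (SE 0.23, adjusted p = 3.02e-31). Nt5e, the ecto-enzyme that makes extracellular adenosine, differed by -4.42 (SE 0.32), although its 3 probe sets ranged from -4.42 to -0.01. Oprd1, the delta opioid receptor, differed by -4.00 (SE 0.34), and Grik3, a kainate receptor subunit, by -3.86 (SE 0.18). Upb1, a pyrimidine breakdown enzyme, differed by -2.73 (SE 0.26). The adenosine receptor gene Adora2a was not analysed here. These lists had been drawn up as line markers with earlier results of these data known, so their counts describe the lines and are not independent evidence.

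The striatal neuropeptides separated by line. Pdyn, the dynorphin precursor of dSPN, ranged from 10.31 to 11.12 in dSPN (median 10.80), against 6.21 to 8.69 in iSPN (median 7.69). Tac1, the substance P precursor, ranged from 11.45 to 11.95 in dSPN (median 11.68), against 9.79 to 10.15 in iSPN (median 9.93). Penk, the enkephalin precursor of iSPN, ranged from 11.26 to 11.68 in dSPN (median 11.56), against 12.72 to 13.13 in iSPN (median 12.96). None of the groups overlapped in these peptide genes, and the differences were 3.19 for Pdyn (SE 0.24, adjusted p = 1.53e-18), 1.75 for Tac1 (SE 0.10, adjusted p = 2.7e-24) and -1.43 for Penk (SE 0.06, adjusted p = 1.52e-30). Nts, the neurotensin precursor, was lower in dSPN by a difference of -3.13 (SE 0.32, adjusted p = 6.11e-13), with 5.12 to 8.09 in dSPN against 7.43 to 10.60 in iSPN. Crh, the corticotropin-releasing hormone gene, was 3.21 higher (SE 0.67, adjusted p = 7.47e-05), but its arrays spread from 2.58 to 8.36 in dSPN and from 2.10 to 6.54 in iSPN, and overlapped.

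In all, 10 of 23 tested neuropeptide, granin and processing genes were higher in dSPN and 4 were lower (16.5% and 20.2% of all genes). The list's median difference was 0.32. With oligodendrocyte marker level as a covariate 5 were higher and 5 lower (1075 and 1747 of all 13271 genes). Scg2, the secretogranin II gene, ranged from 10.68 to 11.34 in dSPN (median 11.13), against 8.74 to 9.69 in iSPN (median 9.29), a difference of 1.83 (SE 0.13, adjusted p = 2.85e-19). Cpe, which trims peptide precursors, and Scg5, a chaperone of their convertase, were lower by differences of -0.36 (SE 0.10) and -0.41 (SE 0.12).

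**Figure D2:**
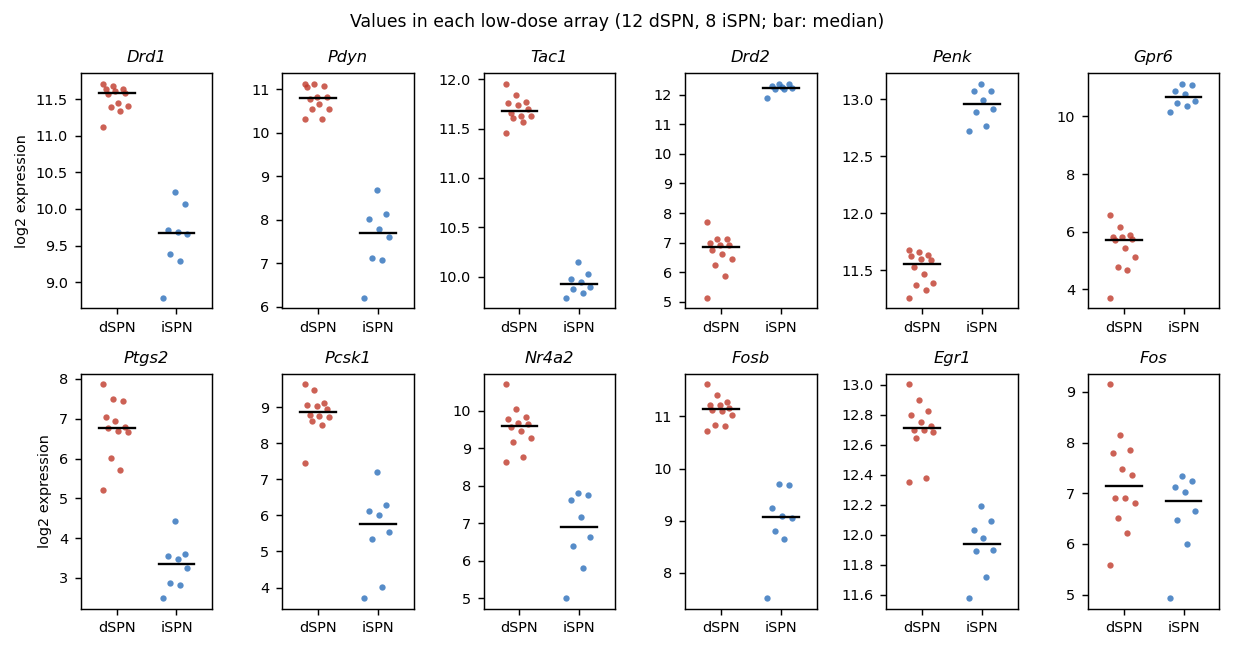
Log2 expression (y axis) of 12 receptor, peptide and activity-regulated genes in each low-dose array, with 12 dSPN points left of 8 iSPN points and a bar at each median. Drd1, Pdyn, Tac1, Ptgs2, Pcsk1, Nr4a2, Fosb and Egr1 lie higher in every dSPN array than in any iSPN array, Drd2, Penk and Gpr6 lie lower in every dSPN array, and the points of Fos overlap.

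Activity-regulated genes were mostly higher in dSPN. Of 34 tested immediate early genes, which are transcribed within minutes of neuronal stimulation, 25 were higher in dSPN and 1 was lower, with a median difference of 0.84. Of 25 late activity-regulated genes, 21 were higher and 2 were lower, with a median of 1.21. The share of all genes tested that was higher was 16.5%, as above. Like the other lists, these were chosen with earlier results of these data known. Their counts, here and in the comparisons below, describe these genes and are not independent evidence. Arrays of the 2 lines did not overlap for 15 of the immediate early genes and 14 of the late genes, each time with dSPN higher, whereas 2.61% of all genes had no overlap in that direction.

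Among transcription factors of the immediate early class, Nr4a2 ranged from 8.63 to 10.71 in dSPN (median 9.61), against 5.01 to 7.80 in iSPN (median 6.90). Fosb, whose stable products accumulate under chronic dopaminergic treatment, ranged from 10.73 to 11.62 in dSPN (median 11.15), against 7.52 to 9.71 in iSPN (median 9.07). Egr1 ranged from 12.35 to 13 in dSPN (median 12.71), against 11.58 to 12.19 in iSPN (median 11.94). Every dSPN array exceeded every iSPN array in these factors, by differences of 2.77 (SE 0.28, adjusted p = 6.67e-13), 2.16 (SE 0.22, adjusted p = 9.61e-13) and 0.78 (SE 0.09, adjusted p = 3.03e-11). One of the 6 Nr4a2 probe sets did not share the direction, at a difference of 0.00. Apold1, a membrane protein first described in endothelium, differed by 2.61 (SE 0.28), and Ier3, a regulator of cell survival, by 2.38 (SE 0.16), both with no overlap between lines.

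The classical marker Fos did not pass the test. It ranged from 5.58 to 9.15 in dSPN (median 7.13), against 4.93 to 7.33 in iSPN (median 6.84), with a difference of 0.63 (SE 0.41, adjusted p = 0.234). Arc, which encodes a synaptic regulator of AMPA receptor traffic, was higher by 0.99 (SE 0.20, adjusted p = 3.28e-05), with 9.32 to 10.70 in dSPN against 7.99 to 9.55 in iSPN. Nr4a1 and Junb were higher by 0.83 (SE 0.27, adjusted p = 0.0107) and 0.40 (SE 0.11, adjusted p = 0.00368), and their arrays overlapped. Within the list, the only immediate early gene called lower was Klf2, at -0.34 (SE 0.14, adjusted p = 0.0443). Its level was low, at 3.77 to 4.34 in dSPN against 4.01 to 4.91 in iSPN. Genes outside the list were not counted.

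The late genes held larger differences. Ptgs2, the inducible cyclooxygenase, ranged from 5.2 to 7.87 in dSPN (median 6.78), against 2.49 to 4.44 in iSPN (median 3.35). Pcsk1, the convertase that cleaves peptide precursors, ranged from 7.45 to 9.64 in dSPN (median 8.87), against 3.71 to 7.21 in iSPN (median 5.77). Sstr2, a somatostatin receptor, ranged from 9.24 to 10.53 in dSPN (median 10.01), against 5.42 to 7.77 in iSPN (median 6.76). All dSPN arrays lay above all iSPN arrays in these genes and in Tinf2, a gene for a telomere-binding protein. The differences were 3.41 for Ptgs2 (SE 0.23, adjusted p = 3.88e-20), 3.31 for Pcsk1 (SE 0.33, adjusted p = 3.96e-13), 3.31 for Sstr2 (SE 0.28, adjusted p = 5.89e-16) and 3.12 for Tinf2 (SE 0.25, adjusted p = 1.57e-17). Sorcs3, a sorting receptor, and Rasgrp1, an activator of Ras, were lower by differences of -0.78 (SE 0.24) and -0.15 (SE 0.04), and 3 of the 4 Rasgrp1 probe sets pointed the other way.

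CREB, the transcription factor phosphorylated downstream of cAMP and ERK, binds the cAMP response element TGACGTCA, and promoters of these genes were searched for those letters on both strands in the 250 bases before and 50 after the start. Sequences are from RefSeq (GRCm38.p6). The full element was found in 5 of the 14 late genes higher in dSPN for which a promoter was held (35.7%) and in 0 of 19 such immediate early genes, against 3.48% of 10672 tested genes and 2.03% of all promoters. The shorter element, TGACG or its complement CGTCA, was found in 10 of the 14 late genes (71.4%) and 11 of the 19 immediate early genes (57.9%), against 34.7% of the tested genes. Each full element contains a shorter one on either strand, so the counts overlap. A match describes letters in this window and says nothing of binding. The genes searched come from lists chosen with earlier results known, so these shares are not independent evidence. The 120 bases before the start are shown for the 5 late genes with a full element, element in capitals, and these genes had differences from 0.29 to 3.31.
Pcsk1 (chr13:75089737-75089856, plus strand): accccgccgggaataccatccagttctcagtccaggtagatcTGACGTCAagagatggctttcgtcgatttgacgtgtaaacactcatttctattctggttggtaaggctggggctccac
Sstr2 (chr11:113619207-113619326, plus strand): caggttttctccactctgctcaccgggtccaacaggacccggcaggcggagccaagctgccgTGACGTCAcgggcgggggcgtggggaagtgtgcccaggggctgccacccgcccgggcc
Tinf2 (chr14:55681818-55681937, minus strand): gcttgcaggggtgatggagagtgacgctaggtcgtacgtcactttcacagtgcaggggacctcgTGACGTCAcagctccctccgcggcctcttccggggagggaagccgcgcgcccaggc
Scg2 (chr1:79440027-79440146, minus strand): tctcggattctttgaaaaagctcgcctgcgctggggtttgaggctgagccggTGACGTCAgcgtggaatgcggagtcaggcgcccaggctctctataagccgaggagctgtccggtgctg
Plk2 (chr13:110394924-110395043, plus strand): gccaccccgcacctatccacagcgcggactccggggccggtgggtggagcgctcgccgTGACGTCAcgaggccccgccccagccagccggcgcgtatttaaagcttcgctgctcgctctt

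The elements begin 78 bases before the start in Pcsk1, 58 in Sstr2, 56 in Tinf2, 68 in Scg2 and 62 in Plk2, counted to the first base of the element. Plk2, a kinase induced by synaptic activity, differed by 0.29 (SE 0.07, adjusted p = 0.000354), so the same letters stand before genes with small and large differences. Immediate early genes are shown with the shorter elements in capitals, because they were higher in dSPN without a full element.
Fosb (chr7:19310046-19310165, minus strand): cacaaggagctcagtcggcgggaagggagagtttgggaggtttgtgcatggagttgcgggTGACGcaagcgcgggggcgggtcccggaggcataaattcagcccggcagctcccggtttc
Nr4a1 (chr15:101266726-101266845, plus strand): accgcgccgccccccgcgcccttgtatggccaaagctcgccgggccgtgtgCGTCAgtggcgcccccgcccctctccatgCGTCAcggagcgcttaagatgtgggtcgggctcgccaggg
Nr4a2 (chr2:57124004-57124123, minus strand): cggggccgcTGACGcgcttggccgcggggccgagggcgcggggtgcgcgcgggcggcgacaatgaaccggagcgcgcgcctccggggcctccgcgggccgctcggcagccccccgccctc

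A full element is not particular to genes higher in dSPN. Gpr6, the iSPN marker with a difference of -5.22, holds one 78 bases before its start, shown here as the counterexample.
Gpr6 (chr10:41072291-41072410, minus strand): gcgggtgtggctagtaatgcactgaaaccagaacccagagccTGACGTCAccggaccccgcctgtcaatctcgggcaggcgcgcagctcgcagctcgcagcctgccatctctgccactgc

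The one-sidedness of the activity genes at the low dose was set against the line difference in the other states, whose arrays are not shared with it. After the lesion with saline no tested immediate early gene was higher in dSPN and 21 were lower (higher 10.7% and lower 11.4% of all genes). After the mock lesion 3 were higher and 2 lower (11.6% and 10.9% of all genes), and at the high dose 28 were higher and none lower (18.4% and 24.6%). The late genes had 1 higher and 12 lower after saline, 10 higher and 1 lower after the mock lesion, and 22 higher and 2 lower at the high dose. Averaged over the tested immediate early genes, the log2 level was 8.27 to 9.18 in the low-dose dSPN arrays (median 8.53), against 6.96 to 7.93 in the low-dose iSPN arrays (median 7.64). After saline that mean was 6.34 to 6.67 in dSPN (median 6.52), against 7.12 to 7.49 in iSPN (median 7.33). The order of the lines was thus opposite in the 2 states, with no overlap between lines in either.

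**Figure D3:**
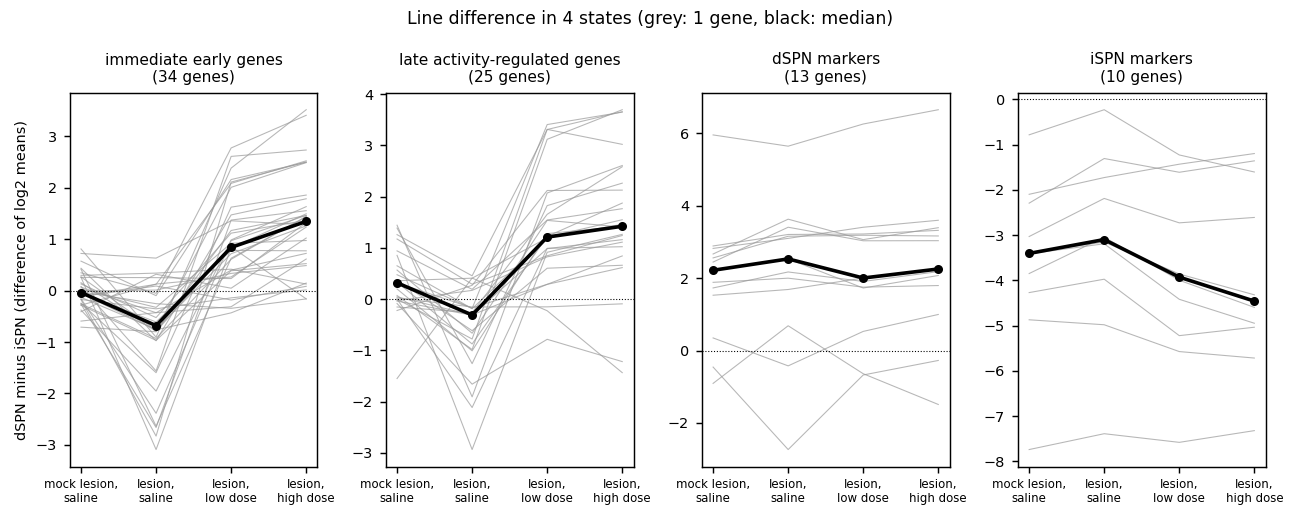
Difference between dSPN and iSPN (y axis, difference of log2 means) in the mock, lesion with saline, low-dose and high-dose states (x axis), with a grey line per gene and the median in black, for activity-regulated and marker lists. The immediate early gene median lies at -0.68 after saline, 0.84 at the low dose and 1.35 at the high dose, while the medians of the marker lists keep their sign in all states.

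The change of the line difference was tested directly as an interaction. Relative to the lesion with saline, it was larger at the low dose for 24 of 34 immediate early genes and smaller for none (6.99% and 7.79% of all genes), and larger for 20 of 25 late genes and smaller for none. Relative to the mock lesion it was larger for 20 immediate early genes and smaller for none (4.70% and 5.80% of all genes), and larger for 11 late genes and smaller for 1. Nr4a3 held the largest change relative to saline of all genes, at 4.94 (SE 0.39, adjusted p = 8.94e-17). It averaged 11.41 ± 0.20 in low-dose dSPN and 9.30 ± 0.80 in low-dose iSPN (SD, n = 12 and 8), and 5.86 ± 0.85 in saline dSPN and 8.69 ± 0.38 in saline iSPN (SD, n = 11 and 7). Its line difference was 2.11 at the low dose and -2.83 after saline. Shisa2 (4.36, SE 0.37), Apold1 (4.17, SE 0.41), Tinf2 (4.10, SE 0.36), Pcsk1 (4.09, SE 0.48) and Fosl2, a Fos-family factor (4.04, SE 0.28), followed.

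Fos, which was not called at the low dose, and Nr4a1, whose arrays overlapped, both had called interactions. For Fos the interaction was 3.27 (SE 0.60, adjusted p = 3.36e-05), with means of 7.23 in low-dose dSPN and 6.60 in low-dose iSPN, and of 4.54 in saline dSPN and 7.18 in saline iSPN. Nr4a1 had an interaction of 3.92 (SE 0.39, adjusted p = 9.86e-13). Its mean was 9.39 in low-dose dSPN and 8.56 in low-dose iSPN, and 7.02 in saline dSPN and 10.11 in saline iSPN. In both genes dSPN stood higher and iSPN lower at the low dose than after saline. The lower level in iSPN was called for Nr4a1 (difference of low dose minus saline -1.55, SE 0.30, adjusted p = 0.000493) and not for Fos (-0.58, SE 0.47, adjusted p = 0.577).

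Arc rose in dSPN by 3.42 relative to saline (SE 0.18, adjusted p = 6.09e-27), and in iSPN the difference was 0.48 (SE 0.22, adjusted p = 0.233). Low-dose minus saline, 30 of the 34 immediate early genes were higher in dSPN and none lower (15.1% and 19.0% of all genes), and in iSPN 6 were higher and 2 lower (2.41% and 1.77%, of 4.18% called in all). These values share the low-dose arrays with the line difference, and in dSPN low dose and saline share no title run. Fosb and Nr4a2 were higher with the low dose in both lines, in dSPN by 3.26 (SE 0.20) and 4.43 (SE 0.26), and in iSPN by 1.00 (SE 0.25, adjusted p = 0.01) and 1.6 (SE 0.32, adjusted p = 0.000689).

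Regulators that dampen the MAP kinase pathway, some of which the pathway itself induces, were divided. Of 23 tested, 10 were higher and 2 lower in dSPN (16.5% and 20.2% of all genes), with a median of 0.23. Dusp14, a MAP kinase phosphatase, ranged from 10.68 to 11.64 in dSPN (median 11.27), against 6.89 to 9.64 in iSPN (median 9.22), a difference of 2.21 (SE 0.20, adjusted p = 7.17e-15). The related Dusp4 was higher by 2.15 (SE 0.28), Dusp6 by 1.02 (SE 0.22) and Spred2, an inhibitor of Raf activation, by 0.85 (SE 0.12). Only Dusp14 had groups that did not overlap. Spred3 (-1.01, SE 0.29, adjusted p = 0.00373) and Spry3 (-0.38, SE 0.16, adjusted p = 0.0487) were lower. After saline 2 of the 23 were higher and 14 lower in dSPN (10.7% and 11.4% of all genes). The interaction relative to saline was positive for 13 and negative for none (6.99% and 7.79%).

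In dopamine and cAMP signalling 13 of 52 tested genes were higher and 22 lower in dSPN (16.5% and 20.2% of all genes). The median was -0.21. Receptors led both sides. Besides Drd1 and Chrm4, Htr1b, the Gi-coupled serotonin 1B receptor, was higher by 1.05 (SE 0.11, adjusted p = 3.23e-12), with 11.45 to 12.04 in dSPN against 10.31 to 11.10 in iSPN and no overlap. Its line difference was 0.08 after the mock lesion and -0.07 after saline, and the interaction relative to saline was 1.12 (SE 0.16, adjusted p = 2.23e-07). Gnai1, an inhibitory G protein subunit, was higher by 0.80 (SE 0.10).

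On the lower side stood Drd2, Oprd1, Rapgef3 and Gnas. Rapgef3, a cAMP-activated exchange factor for Rap, differed by -1.66 (SE 0.57, adjusted p = 0.0153) with arrays from 3.71 to 8.36 in dSPN against 7.37 to 9.20 in iSPN. Gnas, the stimulatory G protein subunit, differed by -1.51 (SE 0.12, adjusted p = 1.06e-16) in the probe set used, but 2 of its 3 probe sets pointed the other way, the highest at 0.18.

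Markers shared by both spiny neuron classes were mostly lower in dSPN, with a median of -0.25. Of 21, 14 were lower and 2 higher (20.2% and 16.5% of all genes). Rasd2, the striatal GTPase Rhes, ranged from 10.41 to 11.19 in dSPN (median 10.88), against 11.79 to 12.28 in iSPN (median 12.05), a difference of -1.18 (SE 0.07, adjusted p = 3.03e-22). Strn, the striatin scaffold, differed by -0.87 (SE 0.09), Actn2, a spine actinin, by -0.71 (SE 0.17), and Pde1b, a calmodulin-dependent phosphodiesterase, by -0.53 (SE 0.06). The groups of Rasd2, Strn and Pde1b did not overlap. Gad2, a GABA-synthesising enzyme, was higher by 0.37 (SE 0.06), and Arpp21 by 0.13 (SE 0.04). For Rasd2 the line difference was -0.57 both after the mock lesion and after saline, and the interaction relative to saline was -0.61 (SE 0.11, adjusted p = 1.67e-05).

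Of 41 glutamate receptor and scaffold genes 9 were higher and 7 lower, near the shares of all genes (16.5% and 20.2%). The median was 0.02. Cacng3, an AMPA receptor auxiliary subunit, was higher by 1.46 (SE 0.13, adjusted p = 1.2e-15), with 10.24 to 10.87 in dSPN against 8.64 to 10.07 in iSPN. Homer1, the postsynaptic scaffold whose short form is activity-induced, was higher by 0.99 (SE 0.10, adjusted p = 6.4e-13), and 1 of its 6 probe sets pointed the other way. Neither overlapped between lines. After saline the Cacng3 difference was -0.07 (adjusted p = 0.773), while Homer1 was lower in dSPN, at -0.31 (adjusted p = 0.0249). Grm4, a Gi-coupled metabotropic receptor, was higher by 0.96 (SE 0.15). On the lower side, after Grik3, stood Grin2c (-0.88, SE 0.28), Cacng4 (-0.71, SE 0.13) and Grid1 (-0.49, SE 0.14).

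In the inhibitory synapse list 2 of 15 genes were higher and 4 lower (16.5% and 20.2% of all genes). Gabra3, a GABA-A receptor subunit, differed by -1.48 (SE 0.30, adjusted p = 3.77e-05) with no overlap, and Gabrd, the extrasynaptic delta subunit, by -0.66 (SE 0.14). Gphn and Nlgn2, which anchor inhibitory synapses, differed by -0.54 (SE 0.13) and -0.42 (SE 0.09). Some probe sets of Gabrd, Gphn and Nlgn2 pointed the other way. Gabrb2 was higher by 0.40 (SE 0.11).

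Of 44 potassium channel genes 7 were higher and 12 lower (16.5% and 20.2% of all genes). A count near those shares is no result about a list. Kcnk2, a two-pore leak channel, ranged from 8.04 to 9.57 in dSPN (median 8.76), against 10.07 to 10.67 in iSPN (median 10.31), a difference of -1.49 (SE 0.13, adjusted p = 3.31e-15). Kcna2, a voltage-gated channel, differed by -1.32 (SE 0.13, adjusted p = 7.53e-14), also with no overlap. Kcnn3, a calcium-activated channel, was higher by 1.19 (SE 0.17), Kcnf1 by 1.04 (SE 0.18) and Kcnj3, a G protein-gated rectifier, by 0.94 (SE 0.20), while the related calcium-activated Kcnn2 differed by -1.0 (SE 0.23). Kcnj10, a rectifier known mainly from astrocytes, differed by -1.52 (SE 0.25).

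Sodium and calcium channel genes had 3 higher and 8 lower of 21 (16.5% and 20.2% of all genes). Scn4b, the sodium channel subunit linked to resurgent current, ranged from 11.15 to 12.02 in dSPN (median 11.65), against 12.18 to 12.47 in iSPN (median 12.31), a difference of -0.71 (SE 0.07, adjusted p = 2.47e-13). Cacna1e differed by -0.76 (SE 0.10) with no overlap, Cacna1h by -0.95 (SE 0.23) and Scn1a by -0.67 (SE 0.15). Cacnb1, a calcium channel beta subunit, was higher by 0.62 (SE 0.10).

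**Figure D4:**
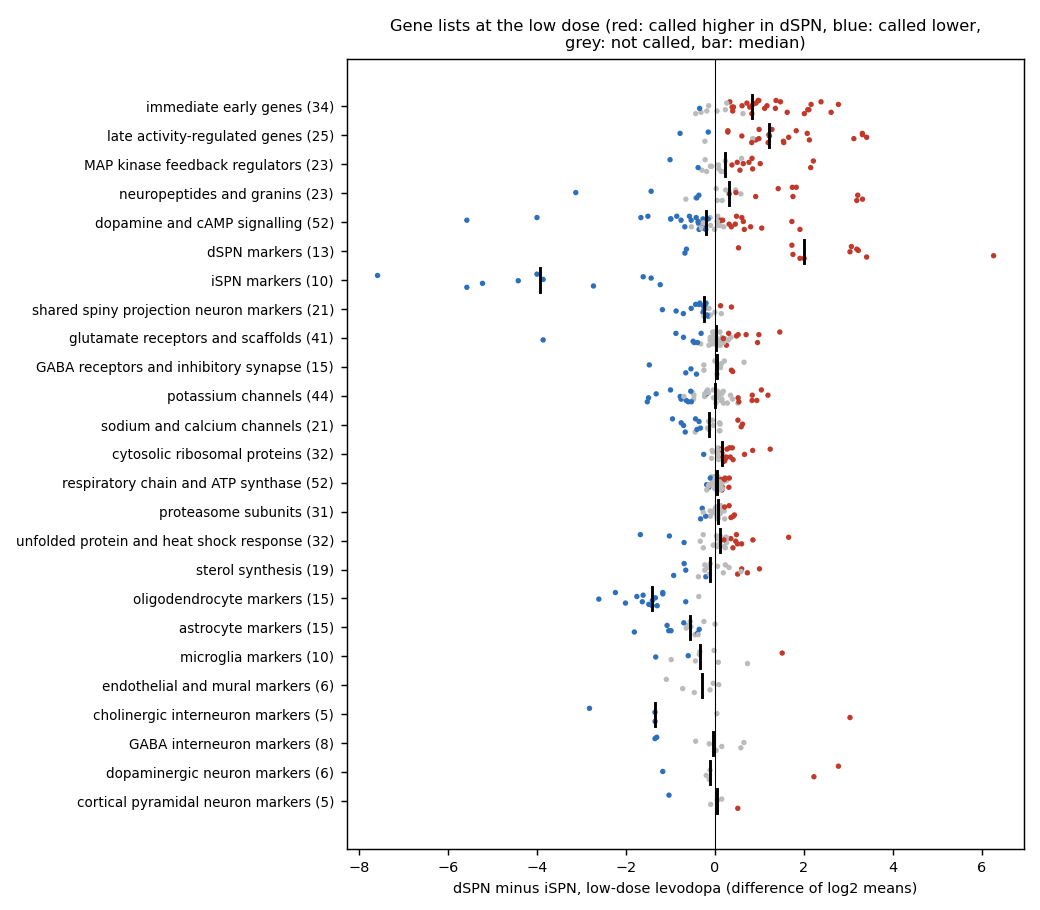
Differences between dSPN and iSPN under low-dose levodopa (x axis, difference of log2 means) for the tested members of each gene list (rows, number of genes in parentheses), with a point per gene, called genes coloured, and a bar at the median. Immediate early and late activity-regulated genes have medians of 0.84 and 1.21, oligodendrocyte markers one of -1.41, and most other lists lie around 0.

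Cytosolic ribosomal protein genes were higher in dSPN in small steps, with a median of 0.15. Of 32, 19 were called higher and 1 lower (16.5% and 20.2% of all genes). Rps7 was higher by 0.41 (SE 0.07, adjusted p = 3.62e-06), Rps6 by 0.66 (SE 0.16), Rpl14 by 0.85 (SE 0.22) and Rps25 by 1.24 (SE 0.39, adjusted p = 0.0077), with overlapping arrays. The lower gene was Rpl10a, which encodes the ribosomal protein L10a that the tag is fused to, at -0.25 (SE 0.05, adjusted p = 1.54e-05) and with no overlap. The list's mean level was 11.28 to 11.54 in low-dose dSPN (median 11.45), against 11.12 to 11.28 in low-dose iSPN (median 11.24). After saline 2 of the 32 were higher and 6 lower in dSPN (10.7% and 11.4% of all genes). The interaction relative to saline was positive for 16 and negative for 1 (6.99% and 7.79%). With oligodendrocyte marker level added as a covariate 5 of the 32 were called higher and 1 lower (1075 and 1747 of all 13271 genes), with a median of 0.13.

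Respiratory chain genes had 8 of 52 higher and 4 lower, against 16.5% and 20.2% of all genes. Their median was 0.04, and no member exceeded a difference of 0.32, that of Uqcrb (SE 0.07). Cycs, cytochrome c, was higher by 0.21 (SE 0.05) and Sdha lower at -0.19 (SE 0.04). Of 31 proteasome subunits 5 were higher and 3 lower (against the same shares), led by Psmb7 (0.44, SE 0.08) and Psmb5 (-0.32, SE 0.09). Without the 3 iSPN arrays named below, 2 of the 52 respiratory genes were called higher and 5 lower, and 3 of the 31 proteasome genes higher and 4 lower. With the oligodendrocyte covariate 0 respiratory genes were called higher and 8 lower, and 0 proteasome genes higher and 5 lower. Of all 13271 genes 1638 were higher and 2199 lower without the 3 arrays, and 1075 and 1747 with the covariate. The counts of lower genes under the covariate are near that share and are no result about these lists.

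In the chaperone and unfolded protein list 9 of 32 genes were higher and 3 lower (16.5% and 20.2% of all genes). The median was 0.12. The oligodendrocyte covariate gave 4 higher and 2 lower (median -0.12), against 1075 and 1747 of all 13271 genes. Leaving out the 3 iSPN arrays gave 4 and 3 (median -0.03), against 1638 and 2199. Dnajb5, an Hsp40 co-chaperone, ranged from 11.42 to 12.29 in dSPN (median 11.73), against 9.72 to 10.45 in iSPN (median 10.15). Its difference of 1.66 (SE 0.13, adjusted p = 1.77e-17) compares with -0.13 after the mock lesion, -0.52 after saline and 1.87 at the high dose. Pdia3 was higher by 0.85 (SE 0.15), Hsp90aa1 by 0.60 (SE 0.08) and Ddit3 by 0.51 (SE 0.12). Trib3, a pseudokinase induced by stress, was lower, at -1.68 (SE 0.30, adjusted p = 4.34e-06), as were Edem1 (-1.02, SE 0.32) and Sdf2l1 (-0.69, SE 0.26).

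Of 19 sterol synthesis genes 4 were higher and 4 lower (16.5% and 20.2% of all genes). The counts were 1 and 4 with the oligodendrocyte covariate (1075 and 1747 of all 13271 genes) and 2 and 5 without the 3 iSPN arrays (1638 and 2199). Idi1 and Pmvk were higher by 0.60 (SE 0.14) and 0.73 (SE 0.13), while Lss, lanosterol synthase, differed by -0.93 (SE 0.20) and Insig1, which restrains the pathway, by -0.66 (SE 0.15).

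Markers of other cells moved with the line difference. Of 15 oligodendrocyte markers 14 were lower in dSPN and none higher (20.2% and 16.5% of all genes), with a median of -1.41. Mobp, a myelin protein gene, ranged from 6.79 to 8.27 in dSPN (median 7.85), against 9.22 to 10.91 in iSPN (median 9.87), a difference of -2.24 (SE 0.24, adjusted p = 4.83e-12). Cldn11, the tight junction protein of myelin, differed by -2.01 (SE 0.21), Ugt8a, which makes myelin galactolipids, by -2.61 (SE 0.33), and the lineage factor Olig1 by -1.76 (SE 0.24). The mean level of the list was 5.42 to 6.57 in dSPN (median 5.92), against 6.59 to 8.35 in iSPN (median 7.16), so the lines did not overlap.

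In the other states 10 of the 15 oligodendrocyte markers were lower in dSPN after the mock lesion, 3 after saline and 12 at the high dose. Of all genes 10.9%, 11.4% and 24.6% were lower in those states. Relative to saline the interaction was negative for 7 of the 15 (7.79% of all genes). Low-dose minus saline, 12 oligodendrocyte markers were lower in dSPN (19.0% of all genes), and none was called in iSPN (4.18% of all genes). Of 15 astrocyte markers 7 were lower in dSPN and none higher at the low dose (20.2% and 16.5% of all genes). Gja1 (-1.81, SE 0.32), the gap junction protein connexin 43, and Ndrg2 (-1.08, SE 0.17) led them. The list's mean level was 6.26 to 7.06 in dSPN against 6.47 to 7.72 in iSPN. After the mock lesion 3 astrocyte markers were lower, after saline 1 was lower and 1 higher, and at the high dose 4 were lower.

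**Figure D5:**
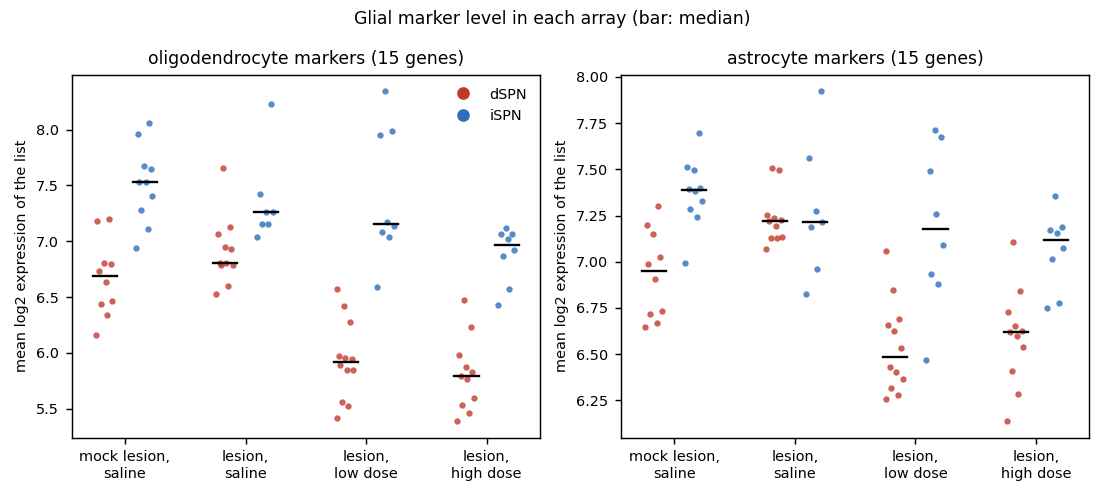
Mean log2 expression (y axis) of 15 oligodendrocyte and 15 astrocyte markers in each array, with dSPN left of iSPN in each of the mock, lesion with saline, low-dose and high-dose states (x axis) and a bar at each median. At the low dose the oligodendrocyte mean lies between 5.42 and 6.57 in dSPN and between 6.59 and 8.35 in iSPN.

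Replicates 2, 3 and 6 of low-dose iSPN had the highest oligodendrocyte means, of 8.35, 7.99 and 7.96. Without them 3837 genes were called, 1638 higher and 2199 lower in dSPN, and the activity lists had 23 of 34 immediate early genes higher and none lower and 20 of 25 late genes higher and 2 lower. With the oligodendrocyte mean as a covariate over all arrays 2822 of the 13271 genes were called, 1075 higher and 1747 lower. Under that covariate 20 immediate early genes were higher and none lower, 19 late genes were higher and 2 lower, 11 dSPN markers were higher and 1 lower, and all 10 iSPN markers were lower. The astrocyte list then had 2 genes higher and none lower. The covariate also left 7 higher and 21 lower of the dopamine and cAMP genes, 1 and 9 of the shared spiny neuron markers, 7 and 3 of the glutamate genes, 1 and 4 of the inhibitory synapse genes, 4 and 10 of the potassium channels, and 1 and 3 of the sodium and calcium channels.

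Other marker lists were small, and of all genes 16.5% were higher and 20.2% lower. Of 10 microglial markers Cd68, a lysosomal protein gene, was higher by 1.51 (SE 0.19, adjusted p = 6.3e-10) with no overlap, while Tyrobp and C1qa were lower at -1.33 (SE 0.31) and -0.60 (SE 0.20). None of 6 endothelial and mural markers was called. Of 5 cholinergic interneuron markers, which matter because these cells carry the D2 receptor, Isl1 was higher and Lhx8 (-2.82, SE 0.28, adjusted p = 1.92e-13), Slc5a7 (-1.35, SE 0.26) and Slc18a3 (-1.35, SE 0.30) were lower. Slc5a7, the choline transporter, had levels of 3.34 to 4.57 in dSPN against 4.11 to 6.23 in iSPN. Lower levels of Lhx8, Slc5a7 and Slc18a3 in dSPN were also called after the mock lesion, after saline and at the high dose. In each of those states 3 of the 5 markers were lower, against 10.9%, 11.4% and 24.6% of all genes.

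Lhx6 (-1.35, SE 0.37) and Pvalb (-1.31, SE 0.38) were the called members of 8 GABA interneuron markers. That count is near the 20.2% of all genes that were lower and is no result about the list. Of 6 dopaminergic markers Nr4a2, also an activity gene, and Dlk1 (2.22, SE 0.34) were higher, and Aldh1a1 (-1.17, SE 0.33) was lower. With oligodendrocyte marker level as a covariate the sign turned for Lhx6 (0.035), Pvalb (0.600) and Aldh1a1 (0.515). Th, tyrosine hydroxylase, showed no called difference, at 5.30 to 8.06 in dSPN (median 6.13) against 5.72 to 7.35 in iSPN (median 6.22), or -0.13 (SE 0.28, adjusted p = 0.76). Of 5 cortical pyramidal markers Neurod2 was higher by 0.51 (SE 0.20) and Rorb lower at -1.03 (SE 0.26). The part of other cells in the line difference of the remaining genes was not tested beyond these values.

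Some of the genes with the highest and lowest differences fell in no list. Sstr4, a somatostatin receptor, was higher by 3.23 (SE 0.28, adjusted p = 5.89e-16), with 7.77 to 9.20 in dSPN against 3.95 to 6.52 in iSPN, and it shares its ligand with Sstr2. Baalc, a membrane-bound neural protein, was higher by 2.93 (SE 0.25), and H2-DMb2, a class II antigen presentation gene, by 3.22 (SE 0.39). Neither overlapped between lines. On the lower side Nell1 (-2.90, SE 0.29) did not overlap, and S1pr5, a sphingosine phosphate receptor known from oligodendrocytes, differed by -2.62 (SE 0.34).

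Zfp36, a protein that destabilises messenger RNA, differed by -2.61 (SE 0.40), Parp3 by -2.55 (SE 0.33) and Crabp2, a retinoic acid carrier, by -2.53 (SE 0.35), each with overlapping arrays. Zfp36 was not a member of the immediate early list, so the counts of that list leave it out. Their medians in dSPN were low, at 4.09 for Zfp36, 4.25 for Parp3 and 5.19 for Crabp2.

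Called line differences at the low dose were then compared gene by gene with those of the other states. The low and high doses shared 3585 genes called in the same direction, which is 73.6% of the 4868 low-dose genes and 62.7% of the 5716 high-dose genes (43.1% of all tested), and 5 genes were called in opposite directions. With the mock lesion the shared genes numbered 1754, or 36% of the low-dose genes and 58.7% of 2988 (22.5% of all tested), with 98 opposite. With the saline-treated lesion they numbered 1484, or 30.5% of the low-dose genes and 50.4% of 2943 (22.2% of all tested), with 251 opposite. Of the 251, 184 were higher in dSPN at the low dose and lower after saline, out of 13271 genes tested. They held 19 of 34 immediate early genes, 10 of 25 late genes and 7 of 23 MAP kinase regulators. These lists were chosen with earlier results known, and most of the 184 were in none of them. The dSPN marker Lypd1 was also among the 184. In all 4 states 334 genes were higher and 404 lower in dSPN.

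The interaction called 1961 genes relative to saline (14.8%, 927 positive and 1034 negative), 1394 relative to the mock lesion (10.5%, 624 and 770) and 151 relative to the high dose (1.14%, 94 and 57). Pcsk1 (3.31, SE 0.47) and Tinf2 (3.05, SE 0.34) led the positive side relative to the mock lesion, followed by Ptgs2 (2.93) and by Ubash3b, a regulator of tyrosine kinase signalling (2.69, SE 0.29). Serpinb2, a plasminogen activator inhibitor, had an interaction of 2.66 (SE 0.32, adjusted p = 3.22e-09) and a range of 3.78 to 7.38 in low-dose dSPN against 2.33 to 3.12 in low-dose iSPN. Mean Serpinb2 was 2.52 ± 0.15 in mock dSPN and 2.5 ± 0.16 in mock iSPN (SD, n = 10 each).

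Drd1, Tac1 and Pdyn gave no called interaction with saline. For Drd1 it was -0.26 relative to saline (SE 0.20, adjusted p = 0.42), for Tac1 -0.25 (SE 0.15, adjusted p = 0.282) and for Pdyn 0.03 (SE 0.35, adjusted p = 0.975). Pdyn was nonetheless higher at the low dose than after saline in both lines, by 1.61 in dSPN (SE 0.22, adjusted p = 6.14e-09) and 1.58 in iSPN (SE 0.27, adjusted p = 6.81e-05). Penk did have an interaction, of 0.30 relative to saline (SE 0.09, adjusted p = 0.0226) and 0.67 relative to the mock lesion (SE 0.09, adjusted p = 9.07e-08), its line difference being -1.43 at the low dose, -1.73 after saline and -2.10 after the mock lesion.

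Between the doses the change of the line difference was called for few genes, and a gene not called may still differ. The median interaction with the high dose was -0.33 over the immediate early genes and -0.27 over the late genes. Creb3l1, a membrane-bound CREB-family factor, had a line difference of 1.46 at the low dose and 3.22 at the high dose, an interaction of -1.76 (SE 0.28, adjusted p = 0.000224). It averaged 5.46 ± 0.60 in low-dose dSPN and 4.00 ± 0.48 in low-dose iSPN (SD, n = 12 and 8), and 7.02 ± 0.67 in high-dose dSPN and 3.8 ± 0.38 in high-dose iSPN (SD, n = 11 and 8). Trh, the thyrotropin-releasing hormone precursor, did not differ by the test at the low dose (0.31, SE 0.25, adjusted p = 0.353), while its line difference was 2.22 at the high dose (interaction -1.91, SE 0.36, adjusted p = 0.00231). Its mean was 4.19 in low-dose dSPN and 3.87 in low-dose iSPN, and 6.10 in high-dose dSPN and 3.88 in high-dose iSPN.

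Fxyd7, a regulator of the sodium pump, was higher in dSPN by 2.19 at the low dose and 0.97 at the high dose (interaction 1.22, SE 0.32, adjusted p = 0.0359). Of the immediate early genes Klf10 had a called positive interaction with dose (0.708% of all genes) and Fosl1, Per1 and Ier3 called negative ones (0.430%). For Ier3 it was lowest (-1.14, SE 0.23, adjusted p = 0.0072), whose line difference was 2.38 at the low dose and 3.52 at the high dose.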

How the data were processed

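RNA from TRAP of single mice was hybridised to Affymetrix mouse expression arrays. The deposited table holds log2 values that the authors made for 45101 probe sets; RMA and the affy package are named, with no version, per the submitters' processing notes. Of the probe sets, 34958 carried 1 gene symbol, 932 several and 9211 none, and the last 2 kinds were left out. The gene table (GRCm38.p6) matched 34754 Entrez identifiers. Each of 18194 genes was represented by its probe set of highest mean, and 13271 above the 40th percentile (3.55) were tested.

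One model over the 8 groups and 77 arrays (69 residual degrees of freedom) was fitted with limma 3.58.1 in R 4.3.3 by lmFit and eBayes, and was tested on simulated data. Contrasts were two-sided with Benjamini-Hochberg adjustment. Genes named are the 15 highest and 15 lowest called differences, up to 4 called members per direction of each of 25 lists, a panel of dopamine-responsive genes, and the 6 highest and 6 lowest called interactions; Fig4, Plk2, Klf10, Fosl1, Ncam1, Usp28, Zw10, Nfil3, Hrh2, Cplx2 and the clock genes were chosen after their values were seen. Members and lists were chosen with earlier results of these data known. Alternatives were the arrays fitted, a random block for title run, array weights, the prior, the filter, the probe set summary, renormalisation, glial covariates and leaving out arrays. Detection calls and scanner files were not used here.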

Additional observations from a re-analysis of the deposited data

Results flagged for a closer look

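Among 173 named genes, 13 had an extreme value among the 8 low-dose iSPN arrays that stood apart by Dixon's criterion, which chance gives for about 5% of such groups. The 12 dSPN arrays were too many for the criterion. Replicate 3 of iSPN was the lowest array for Tinf2 (5.62, next 6.76), Dusp14 (6.89, next 9.11), Nnat (11.38, next 11.94), Psmd11 (8.75, next 10.16), Mvd (6.65, next 7.55), Mir670hg (4.23, next 6.61) and Rnd1 (4.68, next 6.56). It was also among the 3 iSPN arrays with the most oligodendrocyte marker signal. Replicate 5 was lowest for Drd2 (11.90, next 12.20) and Kcnn2 (5.97, next 6.62). Replicate 4 was highest for Shank1 (6.28, next 5.92), Niban3 (8.63, next 5.86) and Prss23 (6.59, next 3.95), and lowest for Cd68 (7.22, next 8.27).

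Genes named for the largest or the panel's called changes of the line difference follow, each a tested interaction in limma. Relative to the lesion with saline these were Nr4a3 (4.94), Shisa2 (4.36), Apold1 (4.17), Tinf2 (4.10), Pcsk1 (4.09), Fosl2 (4.04), Nr4a1 (3.92), Fos (3.27), Arc (2.94), Fosb (2.26), Egr1 (1.39), Junb (0.83) and Penk (0.30) on the positive side. On the negative side stood Rapgef3 (-3.28), Mcm6 (-2.64), S1pr5 (-2.57), Fam117a (-2.49), Tmem86a (-2.48) and Niban3 (-2.31).

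Relative to the mock lesion the changes were 3.31 for Pcsk1, 3.05 for Tinf2, 2.93 for Ptgs2, 2.69 for Ubash3b, 2.66 for Serpinb2, 2.53 for Apold1, 1.59 for Fosb, 1.36 for Arc, 0.83 for Egr1 and 0.67 for Penk. They were -4.07 for Mir670hg, -2.65 for Aard, -2.37 for Parp3, -2.30 for Lamp2, -2.24 for Ccdc113 and -2.04 for AA986860. Mir670hg was higher in dSPN by 1.58 after the mock lesion and lower at the low dose, at -2.49.

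Relative to the high dose they were 2.09 for Rnd1, 1.37 for Cdh10, 1.36 for Itfg2, 1.26 for Arntl, 1.25 for Nuak1 and 1.22 for Fxyd7, and -1.91 for Trh, -1.76 for Creb3l1, -1.74 for Acvrl1, -1.73 for Foxj1, -1.64 for Prss23 and -1.57 for Gprc5a. Tinf2, Niban3, Mir670hg, Rnd1 and Prss23 also had an outlying low-dose iSPN array, as given above. That array enters their interactions, which are not given without it.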

How the results depend on the processing

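Of 173 named genes 163 were called, and 98 of those kept direction and call in those of the 12 alternative settings and 20 omissions of 1 array that tested them. Leaving out the dSPN array of the other run, counted among the 12, is the same fit as omitting dSPN replicate 5. With the oligodendrocyte mean as covariate 2822 genes were called (1075 higher, 1747 lower), and 51 named genes kept their sign but lost their call. The call was also lost, and the sign turned, for Atp5l (-0.155), Slc1a2 (0.337), Lhx6 (0.035), Pvalb (0.600) and Aldh1a1 (0.515). With the mean of all probe sets the sign turned for Rasgrp1 (0.047) and Hmgcs1 (0.087). The interaction with the high dose gave 98 genes under that covariate, 418 with title run as a random block (consensus correlation -0.021) and 243 with array weights. Renormalising by quantiles moved the share of calls that were higher to 51.9%, against 45%, and the median over all genes to 0.03, against -0.01. Leaving out 1 array gave 4536 to 4852 genes at the low dose (2007 to 2200 higher, 2520 to 2684 lower), and 1794 to 2034, 1262 to 1413 and 100 to 203 for the interactions with saline, mock lesion and high dose. The 100 came without dSPN replicate 6. The causes were not tested. Omitting the 3 iSPN arrays highest in oligodendrocyte markers, and the list counts under each setting, were added after seeing the data. No paired analysis was possible because each mouse carries 1 line and 1 treatment and the labels give no shared replicate numbers. The number of arrays limits the precision, and line and run cannot be told apart. The same holds for state and run where the states compared share no run.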

Other observations

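A set of 7 circadian clock genes, chosen after their values were seen, also differed between the lines at the low dose, and Per1 among them is a member of the immediate early list. Dbp, an output factor of the clock, ranged from 10.21 to 10.88 in dSPN (median 10.49), against 11.30 to 11.70 in iSPN (median 11.54). Nr1d1, the repressor REV-ERB alpha, ranged from 6.97 to 8.29 in dSPN (median 7.70), against 8.75 to 9.37 in iSPN (median 9.17). Neither gene's arrays overlapped, and the limma differences were -1.06 for Dbp (SE 0.09, adjusted p = 4.2e-15) and -1.45 for Nr1d1 (SE 0.13, adjusted p = 1.72e-14). Arntl, the activator BMAL1, differed by -0.95 (SE 0.20, adjusted p = 7.72e-05), and its partner Clock by -0.46 (SE 0.10, adjusted p = 0.000128).

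Higher in dSPN were Per1 by 0.61 (SE 0.15, adjusted p = 0.000601), Per2 by 0.51 (SE 0.17, adjusted p = 0.0116) and Cry1 by 0.35 (SE 0.09, adjusted p = 0.00234), with overlapping arrays. Dbp and Nr1d1 were called in each of 32 alternative settings, among which the fit without dSPN replicate 5 is counted repeatedly. The interaction relative to saline was -1.37 for Dbp (SE 0.14), -1.07 for Nr1d1 (SE 0.20), 1.54 for Per1 (SE 0.21), 1.38 for Per2 (SE 0.24) and 0.79 for Cry1 (SE 0.14), and -0.06 for Arntl (SE 0.29, adjusted p = 0.935). No source used here gives the time of day at which tissue was taken, and its part in these values was not tested.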
